A study of Homo sapiens with 18 samples.

Results

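The genes described here encode 8 epithelial proteins, grouped as secreted defence proteins of the mucosa: AGR2, LCN2, SLPI, PI3, PIP, OLFM4, SAA1 and SAA2. They are 8 of the 23786 genes on the arrays. They were selected on their measured responses to ICG-001, which depended strongly on the cell line, so their values on the ICG-001 arrays, and every difference taken from those arrays, are given as a description with no test. RNA was measured on 18 arrays (Affymetrix Human Gene 2.0 ST), in 6 groups of 3. CAL27 and HSC-3, both established lines of human oral squamous cell carcinoma, were each treated with 0.1% DMSO or with 10 µM ICG-001, which keeps β-catenin from binding the histone acetyltransferase CBP. HSC-3 cells were also transfected with 25 nM of a pool of siRNAs against CTNNB1, the gene of β-catenin, or with 25 nM of a non-targeting pool. All cells were grown in medium with serum. The labels give harvest at 48 to 64 h for every group, while the study's methods give 48 h for the transfected cells. Each group is 3 wells of 1 cell line, and whether those wells were separate cultures is not stated in the sources used here, so a p-value measures the spread between wells, which may be technical.

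Secreted defence proteins of the mucosa hold microbes in check and limit the damage that the enzymes of white blood cells do to the epithelium. AGR2 is a protein disulfide isomerase of the endoplasmic reticulum that is needed to fold mucins. LCN2 (lipocalin 2) binds the siderophores with which bacteria take up iron. SLPI and PI3 (elafin) inhibit neutrophil elastase, and both carry a WAP domain. PIP is a glycoprotein of saliva, tears and sweat, and OLFM4 is a glycoprotein of the olfactomedin family known from intestinal crypts and neutrophils. SAA1 and SAA2 are near-identical acute-phase serum amyloid A proteins. Several of these genes are known targets of NF-κB, C/EBP and cytokine signals.

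The promoters of 4 of the 8 genes could be matched in the RefSeq table (build GRCh38.p14), each from 250 bases before to 50 bases after the start of the gene. They are printed because no promoter of the other genes was matched, and were not picked by response. These genes also had the largest differences between DMSO and ICG-001 in one line or the other. The letters in capitals match the NF-κB motif GGGANNNNCC or the C/EBP motif TTGCNNAA on either strand. AGR2 lies on the minus strand (chr7:16804950-16805249), LCN2 on the plus strand (chr9:128149203-128149502), OLFM4 on the plus strand (chr13:53028563-53028862) and PIP on the plus strand (chr7:143131827-143132126).
AGR2: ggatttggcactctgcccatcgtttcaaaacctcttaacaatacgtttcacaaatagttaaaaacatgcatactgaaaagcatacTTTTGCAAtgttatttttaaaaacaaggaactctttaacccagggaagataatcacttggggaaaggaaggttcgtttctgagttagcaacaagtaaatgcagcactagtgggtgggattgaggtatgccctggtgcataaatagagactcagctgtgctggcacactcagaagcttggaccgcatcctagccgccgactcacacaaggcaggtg
LCN2: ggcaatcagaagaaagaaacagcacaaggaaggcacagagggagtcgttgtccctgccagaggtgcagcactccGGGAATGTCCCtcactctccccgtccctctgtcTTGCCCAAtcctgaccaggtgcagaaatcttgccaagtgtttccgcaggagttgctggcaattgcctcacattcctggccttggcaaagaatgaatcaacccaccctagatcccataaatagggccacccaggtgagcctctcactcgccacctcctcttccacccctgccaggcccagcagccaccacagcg
OLFM4: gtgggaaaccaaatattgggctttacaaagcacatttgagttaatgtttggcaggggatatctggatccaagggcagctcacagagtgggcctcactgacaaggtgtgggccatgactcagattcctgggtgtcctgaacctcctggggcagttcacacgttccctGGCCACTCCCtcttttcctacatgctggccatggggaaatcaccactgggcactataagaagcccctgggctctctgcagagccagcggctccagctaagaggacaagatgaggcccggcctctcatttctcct
PIP: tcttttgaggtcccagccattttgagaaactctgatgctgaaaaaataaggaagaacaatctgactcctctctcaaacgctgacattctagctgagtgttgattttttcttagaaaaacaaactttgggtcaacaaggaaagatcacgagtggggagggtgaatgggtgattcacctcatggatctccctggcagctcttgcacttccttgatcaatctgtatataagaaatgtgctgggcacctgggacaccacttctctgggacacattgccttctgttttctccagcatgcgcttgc

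The AGR2 promoter held 1 C/EBP match, 165 bases before the start and on the opposite strand. The LCN2 promoter held the NF-κB motif 176 bases before the start, with a match of the other strand that overlaps it 1 base further on, and a C/EBP match 143 bases before the start. The OLFM4 promoter held 1 NF-κB match on the opposite strand, 84 bases before the start. The PIP promoter held no match to either motif. Of all 35116 promoters in the table, 25.6% held the NF-κB motif and 10.5% the C/EBP motif. The TCF/LEF motif CTTTGA (12.9% of all promoters) and the core GCGTG that the AhR complex binds (36.5%), which were searched on both strands too, were in none of these 4 windows. These are matches of letters and not measured binding.

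All values are on the log2 scale as the authors deposited it, where a difference of 1 is a doubling of the signal. The 12 ICG-001 arrays and the 6 siRNA arrays were normalized as separate sets, so no level was compared between the sets. The median of an array lay between 4.68 and 4.77, and a gene below it on every array of a set was not tested in that set. The lowest correlation between replicate arrays was 0.993. DMSO replicate 1 of CAL27 stood farthest from the mean of its other replicates (root mean square 0.246 on the log2 scale, against 0.152 to 0.202 for the other 17 arrays), and the responses of the 8 genes in CAL27 cells are given with and without it. Of the 11 epithelial markers named in the table, 9 in CAL27 and 10 in HSC-3 were above the array median on every array of each group. Of 14 leukocyte and neutrophil markers, 1 to 3 were (CD14, CD68 and ELANE), and PTPRC, which marks all leukocytes, was at or below 1.77 on every array. Of 8 salivary markers only BHLHA15 was. In RNA of whole wells, fewer cells that make a transcript and less transcript per cell cannot be told apart.

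On DMSO, all 8 genes were lower in HSC-3 than in CAL27 cells, with no overlap between the arrays of the lines for any of them. Of all tested genes 33.0% were lower and 35.1% higher in this way. The median of the 8 differences was -2.98 on the log2 scale, against 0.024 over all 13493 tested genes. On ICG-001 the median was -0.76, and 3 of the 8 genes were higher in HSC-3 than in CAL27 cells without overlap, 4 were lower without overlap and 1 overlapped, beside 35.8% of all tested genes that were higher and 34.5% that were lower. The HSC-3 response exceeded the CAL27 response for all 8 genes, from 0.89 (PI3) to 4.73 (AGR2), and this is what they were selected on. The direction that made up this difference varied. In HSC-3 cells 5 of the 8 genes were higher on ICG-001 without overlap, against 31.1% of all tested genes, and none was lower, against 30.7%. In CAL27 cells 5 were lower without overlap, against 18.7% of all tested genes, and 1 was higher, against 18.2%. Nothing is read from these counts, since the same arrays chose the genes.

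**Figure D1:**
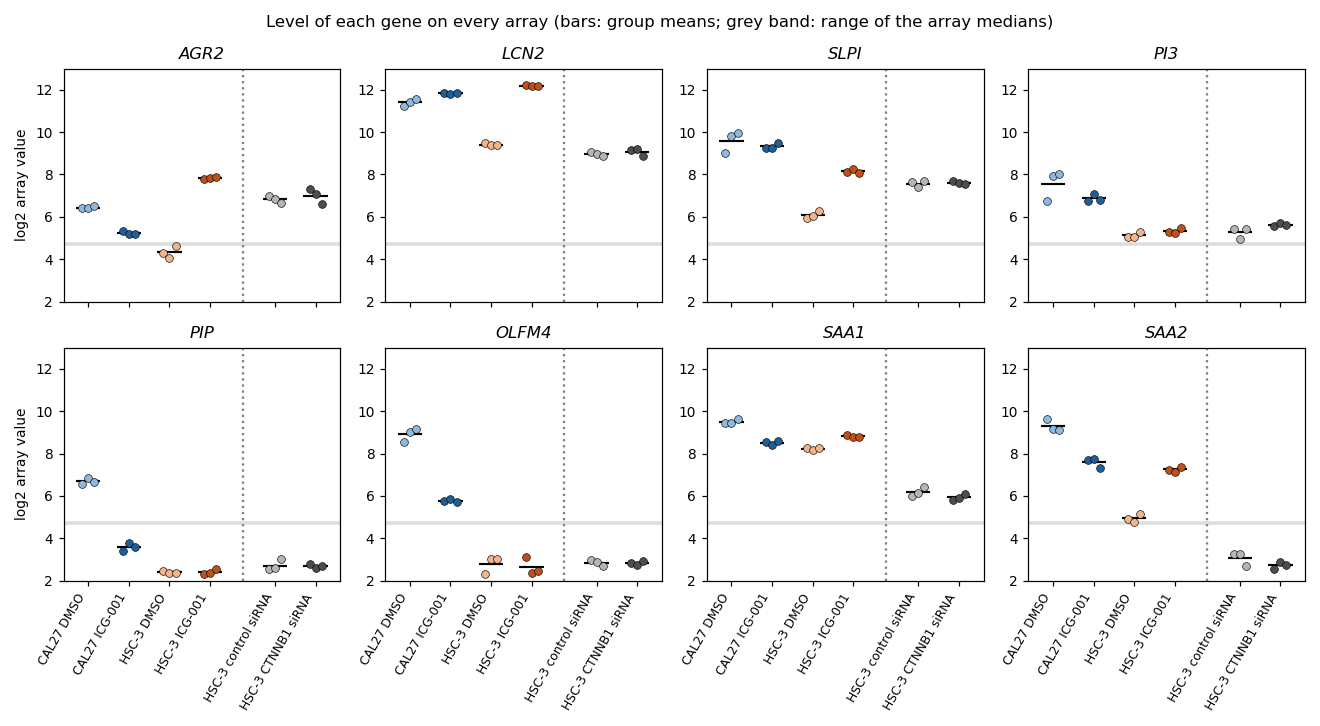
Log2 array value of each of the 8 genes on every array, by group (points: the 3 replicate arrays of a group, bars: group means, grey band: the range of the array medians, 4.68 to 4.77). The dotted line separates the 2 normalization sets, between which levels cannot be compared. AGR2 goes from below the band to 7.85 in HSC-3 cells with ICG-001, and PIP and OLFM4 lie below the band on every HSC-3 array.

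AGR2 had the largest difference of the 8 genes in HSC-3 cells. On DMSO its log2 values in HSC-3 cells were 4.29, 4.07 and 4.64, below the median of the array on all 3. On ICG-001 they were 7.79, 7.85 and 7.90. The means of 4.33 ± 0.29 (SD, n = 3) and 7.85 ± 0.056 (SD, n = 3) differed by 3.52 (standard error 0.17), a ratio of 11.4 in signal. As the DMSO level was not shown to be above background, this ratio is not an exact fold change of the transcript. In CAL27 cells the values were 6.40, 6.42 and 6.49 on DMSO and 5.34, 5.17 and 5.17 on ICG-001. There the mean was 1.21 lower on the log2 scale on ICG-001, a 2.32-fold difference in the opposite direction, again without overlap. No 2 of the 4 groups overlapped, and their order was HSC-3 on ICG-001, CAL27 on DMSO, CAL27 on ICG-001 and HSC-3 on DMSO. HSC-3 minus CAL27 was thus -2.11 on DMSO and 2.62 on ICG-001. AGR2 was the only one of the 8 genes for which the lines were farther apart on ICG-001 than on DMSO. AGR3, its neighbour and closest paralog on chromosome 7, was between 1.17 and 1.37 on all 12 arrays and was not tested.

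LCN2 was high in all groups. In HSC-3 cells it went from 9.49, 9.37 and 9.37 on DMSO to 12.24, 12.19 and 12.17 on ICG-001. This is a difference of 2.79 (standard error 0.045), or 6.91-fold. The highest value of any gene on the HSC-3 ICG-001 arrays was 12.5, so LCN2 was then close to the top of the range of the arrays, and whether this compressed the difference was not tested. In CAL27 cells LCN2 was 11.22, 11.44 and 11.57 on DMSO and 11.86, 11.80 and 11.85 on ICG-001. It was the one gene of the 8 that was higher on ICG-001 without overlap in both lines, by 0.43 in CAL27 cells (1.34-fold). The difference between the lines went from -2.00 on DMSO to 0.36 on ICG-001, with no overlap on either.

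SLPI and PI3, the genes of the 2 elastase inhibitors, lie near each other on chromosome 20 with only the protein-coding genes SEMG1 and SEMG2 between them, but their values in HSC-3 cells did not move alike. SLPI in HSC-3 cells was 5.94, 6.06 and 6.28 on DMSO and 8.12, 8.27 and 8.08 on ICG-001, a difference of 2.06 (standard error 0.11, 4.18-fold) without overlap. PI3 in the same cells was 5.04, 5.03 and 5.30 on DMSO and 5.30, 5.23 and 5.47 on ICG-001. These groups overlapped, with a difference of 0.21 (standard error 0.11).

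In CAL27 cells the arrays of both groups overlapped for both inhibitors. SLPI was 9.02, 9.83 and 9.96 on DMSO and 9.25, 9.26 and 9.47 on ICG-001. PI3 was 6.73, 7.93 and 8.03 on DMSO and 6.76, 7.10 and 6.78 on ICG-001. For both genes the low array on DMSO was replicate 1, the array that stood apart over all genes. With it, the difference was -0.27 for SLPI and -0.68 for PI3, and without it -0.57 and -1.10. Without DMSO replicate 3 the differences were smaller, -0.098 for SLPI and -0.45 for PI3, and without DMSO replicate 2 that of SLPI was -0.16. For the other 6 genes the CAL27 difference without DMSO replicate 1 was -1.23 (AGR2), 0.33 (LCN2), -3.14 (PIP), -3.34 (OLFM4), -1.02 (SAA1) and -1.54 (SAA2). In each treatment HSC-3 cells were below CAL27 cells for both genes without overlap. The difference between the lines narrowed from -3.51 to -1.17 for SLPI and from -2.44 to -1.55 for PI3. Without DMSO replicate 1 of CAL27 it started from -3.80 and -2.86.

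PIP and OLFM4 had the largest differences in CAL27 cells. PIP was 6.58, 6.83 and 6.65 on DMSO and 3.40, 3.80 and 3.60 on ICG-001, which took it from above the array median on every array to below it on every array. Its difference was -3.08 (standard error 0.14), an 8.48-fold lower signal, where the ICG-001 level was likewise not shown to be above background. OLFM4 was 8.55, 9.04 and 9.18 on DMSO and 5.74, 5.85 and 5.71 on ICG-001. Its difference was -3.15 (standard error 0.20), an 8.90-fold lower signal, and it stayed above the array median. In HSC-3 cells both genes were below the median on every array, PIP between 2.33 and 2.57 and OLFM4 between 2.31 and 3.10, and their groups overlapped. The responses of the lines differed by 3.10 for PIP and by 3.02 for OLFM4, of which the CAL27 arrays gave nearly all. As neither gene was shown to be above background in HSC-3 cells on DMSO, a fall there could not have been seen. These differences thus do not show that the lines respond differently.

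SAA1 and SAA2 lie next to each other on chromosome 11. As their transcripts are near-identical, a share of the signal of one may come from the other, and a level for each gene by itself is uncertain. Both were higher on ICG-001 in HSC-3 cells and lower in CAL27 cells, without overlap in either line. SAA2 in HSC-3 cells was 4.89, 4.75 and 5.16 on DMSO and 7.23, 7.13 and 7.38 on ICG-001, a difference of 2.31 (4.97-fold). In CAL27 cells it was 9.62, 9.14 and 9.13 on DMSO and 7.71, 7.76 and 7.30 on ICG-001, a difference of -1.70 (3.25-fold). The lines were 20.5-fold apart on DMSO, while on ICG-001 their arrays overlapped. The HSC-3 values on DMSO lay close to the array median and were not shown to be above background. The ratios of 4.97 and 20.5 are thus not exact fold changes of the transcript.

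SAA1 had smaller differences in both lines. In HSC-3 cells it was 8.27, 8.18 and 8.26 on DMSO and 8.88, 8.80 and 8.77 on ICG-001, a difference of 0.58 (1.49-fold). In CAL27 cells it was 9.46, 9.44 and 9.61 on DMSO and 8.54, 8.40 and 8.59 on ICG-001, a difference of -0.99 (1.99-fold). On ICG-001 the HSC-3 arrays were above the CAL27 arrays by 0.31 without overlap, where on DMSO they had been below by 1.27.

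**Figure D2:**
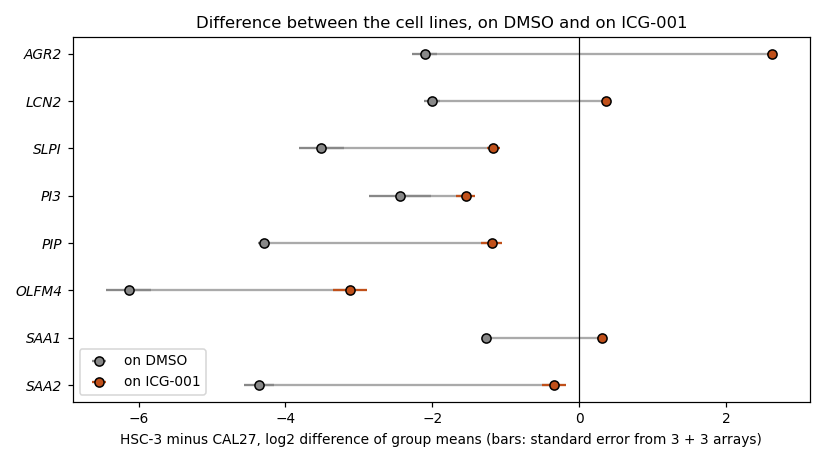
Difference between the lines, HSC-3 minus CAL27, in log2 units for each gene on DMSO (grey) and on ICG-001 (orange), as the difference of the means of 3 and 3 arrays with its standard error. All 8 genes lie left of 0 on DMSO. On ICG-001 7 of them lie closer to 0 than on DMSO, and AGR2 crosses to 2.62.

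The difference between the lines was smaller on ICG-001 than on DMSO for 7 of the 8 genes. Over all tested genes it was smaller for 48.1%. Among the 670 tested genes that lay at least as far below CAL27 on DMSO as the nearest of the 8, it was smaller for 70.1%, so a narrowing was common among genes that start so far apart. Without DMSO replicate 1 of CAL27 the median difference between the lines on DMSO was -3.33 and the median difference between the responses 2.89, against -2.98 and 2.69 with it.

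The genes whose pattern over the 12 ICG-001 arrays was most like that of each member were found by the root mean square difference of log2 values, with each gene centred on its own mean. Over 12836 candidate genes, ELF3 (0.55), KRT15 (0.57) and MIR205 (0.58) were closest to AGR2. CYP1B1 (0.19), TCP11L2 (0.27) and TXNIP (0.35) were closest to LCN2. For SLPI they were CFB (0.28), WFDC2 (0.33) and ATF3 (0.35), and for PI3 RSAD2 (0.25), LRRN4 (0.29) and CTSC (0.29). For PIP they were IDO1 (0.45), SERPINA3 (0.52) and KRTAP4-8 (0.55), and for OLFM4 SERPINB3 (0.52), GBP4 (0.78) and UCA1 (0.87). SAA1 was closest to MAP3K8 (0.20), TENT5A (0.21) and DUBR (0.22), and SAA2 to MIR378D2 (0.38), CFB (0.59) and SLPI (0.63). Thus SLPI was the only member among the 3 genes closest to another member. The points share their arrays, so these values describe likeness and carry no test. When the means of the 4 groups were used in place of the 12 arrays, 16 of these 24 genes were named again.

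Genes with related roles that were not among the 8 were tested with limma, with Benjamini-Hochberg adjustment over all tested genes. The gene lists were chosen with earlier results of these data known, so their counts and p-values are no independent evidence about the 8 genes. The 4 lists (other secreted defence proteins, regulators, receptors and partners of the 8 proteins, and gene neighbours and paralogs) held 150 genes, of which 79 were tested on the ICG-001 arrays. With an adjusted p of 0.05 or less, 42 of the 79 rose and 8 fell in HSC-3 cells, beside 24.2% and 23.6% of all tested genes. In CAL27 cells 7 rose and 6 fell, beside 5.33% and 5.90%. These small counts were not stable, as 3 to 4 rose and 3 to 8 fell when any 1 of the CAL27 arrays was left out (3 and 8 without DMSO replicate 1), and 12 fell with a trend and robust prior. The response was more positive in HSC-3 than in CAL27 cells for 29 and more negative for 4 of the 79, beside 13.9% and 13.3% of all tested genes. The median log2 difference over the 79 genes was 0.28 for the HSC-3 line and -0.017 for the CAL27 line, against 0.00081 and 0.0044 over all tested genes.

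**Figure D3:**
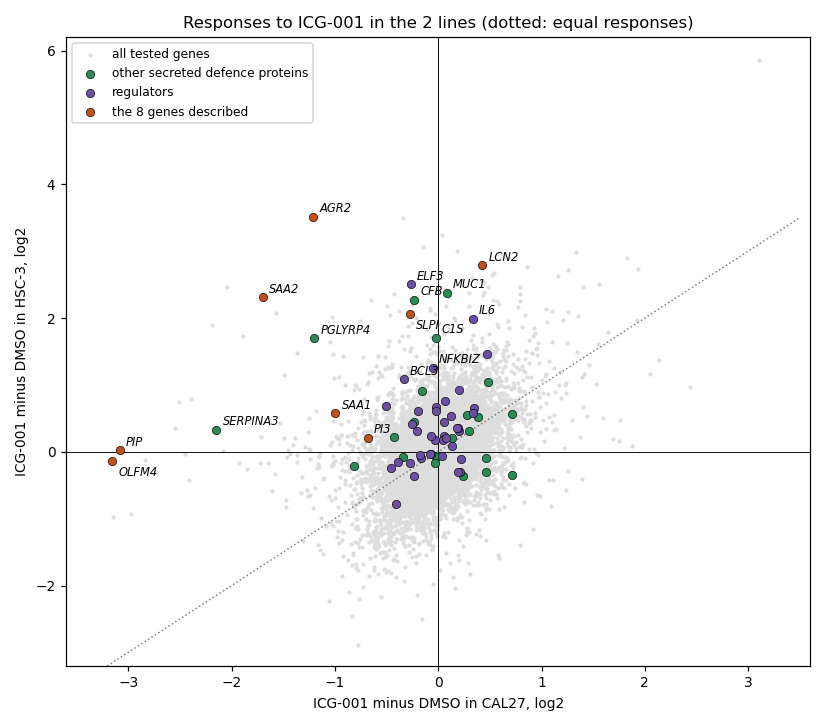
Log2 difference between ICG-001 and DMSO in CAL27 cells (horizontal axis) and in HSC-3 cells (vertical axis) for all tested genes (grey), the 8 genes described here (orange), the tested genes of other secreted defence proteins (green) and of regulators (violet). The dotted line marks equal responses. All 8 genes lie above it, AGR2, SAA2 and SAA1 at the upper left, PIP and OLFM4 at the far left near 0 on the vertical axis.

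Of 23 tested genes of other secreted defence proteins, 12 rose and 1 fell in HSC-3 cells, beside 24.2% and 23.6% of all tested genes. The CAL27 counts were 3 up and 3 down, beside 5.33% and 5.90%. In HSC-3 cells the membrane mucin MUC1 rose by 2.38 on the log2 scale (standard error 0.08, adjusted p = 1.19e-05 from limma), the complement factor CFB by 2.27 and the complement protease C1S by 1.71. CFB, the gene most like SLPI, was 7.16, 7.36 and 7.30 on DMSO and 9.52, 9.56 and 9.55 on ICG-001 in HSC-3 cells. In CAL27 cells CFB was 10.45, 10.49 and 10.60 on DMSO and 10.24, 10.25 and 10.35 on ICG-001. It was thus lower there without overlap, as were 18.7% of all tested genes. The difference of -0.23 did not pass (adjusted p = 0.134 from limma), but passed with a trend and robust prior (adjusted p = 0.0261 from limma). PGLYRP4, which binds bacterial peptidoglycan, had the opposite directions seen for AGR2, SAA1 and SAA2. It rose by 1.70 in HSC-3 cells and fell by 1.20 in CAL27 cells (adjusted p = 6.44e-06 for the difference between the responses, from limma). The trefoil factor TFF3 fell by 0.37 in HSC-3 cells, but in 4 of 6 fits without 1 array its adjusted p was above 0.05.

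In CAL27 cells SERPINA3, an acute-phase protease inhibitor that was among the genes most like PIP, fell 4.43-fold (adjusted p = 5.39e-05 from limma). Its values were 9.29, 9.07 and 9.12 on DMSO and 7.12, 6.85 and 7.07 on ICG-001, and the groups lay far apart. PGLYRP4 and the mucin MUC4 (a fall of 0.82) were the others that fell. PTX3, a soluble receptor for microbes, and the antimicrobial RNASE7 rose by 0.72 each, and the chaperone CLU rose by 0.48. PTX3 had a more negative response in HSC-3 cells, by -1.07 (adjusted p = 0.000916 from limma), so not all secreted defence genes followed the direction of the 8.

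Of 38 tested regulators, 21 rose and 4 fell in HSC-3 cells, beside 24.2% and 23.6% of all tested genes. The CAL27 counts were 3 up and 2 down, beside 5.33% and 5.90%. ELF3, an epithelial transcription factor and the gene most like AGR2, was 7.11, 7.02 and 7.02 on DMSO and 9.47, 9.66 and 9.53 on ICG-001 in HSC-3 cells. It rose there by 2.50 (adjusted p = 1.19e-05 from limma). On the 6 CAL27 arrays it was between 8.04 and 8.70. XBP1, the transcription factor of the unfolded protein response, rose in both lines, by 1.46 in HSC-3 and by 0.47 in CAL27 cells. NFKBIZ and BCL3, nuclear proteins of the IκB family that bind NF-κB, rose by 1.26 and 1.08 in HSC-3 cells. For all 4 the response was more positive in HSC-3 cells, by 2.77 (ELF3), 1.31 (NFKBIZ), 0.99 (XBP1) and 1.42 (BCL3). In HSC-3 cells the receptors IL17RE, IL22RA1 and LIFR and the hypoxia factor HIF1A fell, by 0.77 at most. Without 1 array, HIF1A passed in only 1 of 6 fits and LIFR in 3. IL22RA1 was close to the array median, at 5.04, 5.08 and 5.07 on DMSO and 4.76, 4.62 and 4.73 on ICG-001. Only 1 of its ICG-001 arrays was above that median, so it was not shown to be above background. In CAL27 cells ATF6 and the cytokine IL6 rose by 0.34 and 0.33, and HIF1A and the cytokine signal inhibitor SOCS3 fell by 0.46 and 0.50. In HSC-3 cells ATF6 rose by 0.65 and IL6 by 1.99. SOCS3 rose there by 0.68 (adjusted p = 0.00121 from limma), opposite to CAL27 cells. The difference between the responses was 1.66 for IL6 and 1.18 for SOCS3 (adjusted p = 8.78e-05 and 0.000300 from limma). Of the small changes in CAL27 cells, those of CLU, ATF6, IL6 and TXNDC12 passed in 0 of 6 fits without 1 array, that of SOCS3 in 1 and those of HIF1A and PTGDS in 2.

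Of 14 tested receptors, binding partners and target proteases, 7 rose and 3 fell in HSC-3 cells, beside 24.2% and 23.6% of all tested genes. PLSCR1, a scramblase that binds SLPI, rose 2.83-fold and KLK7, a skin protease, 1.84-fold. On DMSO KLK7 was 4.70, 4.52 and 4.77, above the array median on only 1 array, so its ratio is not an exact fold change. RUVBL2, which binds AGR2, fell by 0.62. In CAL27 cells 0 of the 14 passed (2 at an unadjusted p below 0.05, both from limma). Of all tested genes 5.33% rose and 5.90% fell there. LYPD3, a receptor for AGR2, had a more positive response in HSC-3 cells, by 0.62 (adjusted p = 0.0321 from limma), which was no longer past the threshold in 9 of 12 fits without 1 array. Of the 4 neighbours and paralogs tested, WFDC2, which carries WAP domains as SLPI and PI3 do, was 6.79, 6.81 and 6.52 on DMSO and 9.05, 9.09 and 9.14 on ICG-001 in HSC-3 cells. It rose by 2.39 (standard error 0.10, adjusted p = 2.29e-05 from limma), and its response exceeded that of CAL27 cells by 1.94. TXNDC12, a relative of AGR2, rose by 0.41 in HSC-3 and by 0.36 in CAL27 cells. PTGDS, a lipocalin like LCN2, fell by 0.56 in CAL27 cells, from 4.96, 4.97 and 4.72 to 4.22, 4.56 and 4.19. LCN12, another lipocalin, had a difference of 0.33 there (adjusted p = 0.195 from limma). In CAL27 cells PTGDS was above the array median on 2 DMSO and 0 ICG-001 arrays, and LCN12 on 0 and 2. Neither was thus shown to be above background.

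Of 3 tested leukocyte markers, 0 rose in HSC-3 cells and CD68 fell by 0.25 (adjusted p = 0.0473 from limma), with 2 of the 3 at an unadjusted p below 0.05. The shares of all tested genes that rose and fell in HSC-3 cells were 24.2% and 23.6%. The log2 of the summed level of the 14 leukocyte markers was 8.48 to 8.59 on DMSO and 8.30 to 8.42 on ICG-001. In CAL27 cells CD14 fell by 1.29 (adjusted p = 0.00169 from limma) together with PIP, OLFM4 and SAA2. The summed level was 9.30 to 9.48 on DMSO and 9.39 to 9.42 on ICG-001 there. Of the 11 stromal and endothelial markers, 2 were tested, and CDH5, an endothelial cadherin, fell by 0.87 in CAL27 cells (adjusted p = 0.00303 from limma). The log2 of the summed level of these markers was 8.76 to 8.92 on DMSO and 8.17 to 8.39 on ICG-001 in CAL27 cells, without overlap, and 7.25 to 7.35 and 7.14 to 7.32 in HSC-3 cells. Only COL1A1 and CDH5 among them were above the array median on any CAL27 array. The part of CD14 and CDH5 in these results was not tested.

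The knockdown of CTNNB1 was an independent set of arrays that played no part in the choice of the genes. It asks whether the 8 transcripts change in HSC-3 cells when the RNA of β-catenin is lowered. CTNNB1 was 10.22, 10.26 and 10.19 with control siRNA and 7.35, 6.90 and 7.25 with CTNNB1 siRNA, a fall of 3.06 on the log2 scale, or 8.34-fold (standard error 0.12 in log2 units, limma adjusted p = 0.000495). Of the 8 genes, 5 were tested and 3 (PIP, OLFM4 and SAA2) were below the array median on all 6 arrays. None of the 5 passed an adjusted p of 0.05 in limma, and 1 of them, PI3, had an unadjusted p below 0.05. Over all tested genes 0.0867% passed.

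AGR2 was 6.99, 6.83 and 6.67 with control siRNA and 7.31, 7.08 and 6.59 with CTNNB1 siRNA. The groups overlapped, with a difference of 0.17 (95% confidence interval -0.27 to 0.60, adjusted p = 0.825 from limma). LCN2 was 9.04, 8.98 and 8.87 against 9.14, 9.18 and 8.87, a difference of 0.10 (-0.14 to 0.34). SLPI was 7.63, 7.40 and 7.67 against 7.70, 7.60 and 7.54, a difference of 0.047 (-0.17 to 0.27). In all 3 the groups overlapped, and the intervals give the sizes of difference that these arrays allow.

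PI3 was 5.44, 4.95 and 5.42 with control siRNA and 5.56, 5.73 and 5.60 with CTNNB1 siRNA. It was the one gene of the 8 whose groups did not overlap, against 19.1% of all tested genes. Its difference of 0.36 (0.030 to 0.69) had an unadjusted p of 0.0366 and an adjusted p of 0.495 from limma. SAA1 was 5.99, 6.13 and 6.44 against 5.80, 5.90 and 6.11, with a difference of -0.25 (-0.57 to 0.073). SAA2 was between 2.55 and 3.25 on the 6 arrays and had a difference of -0.35 (-0.75 to 0.039). PIP and OLFM4, between 2.55 and 3.00, had differences of -0.037 and -0.020. Of the 72 list genes tested on these arrays 0 passed in either direction, with 8 at an unadjusted p below 0.05. With a mean-variance trend and a robust prior in limma, 3 of them passed: ELF3 (a rise of 0.51, adjusted p = 0.0107, against 0.175 without the trend) and FN1 (a rise of 0.33) and IL1A (a fall of 0.44). They were chosen here because they alone passed under that setting.

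**Figure D4:**
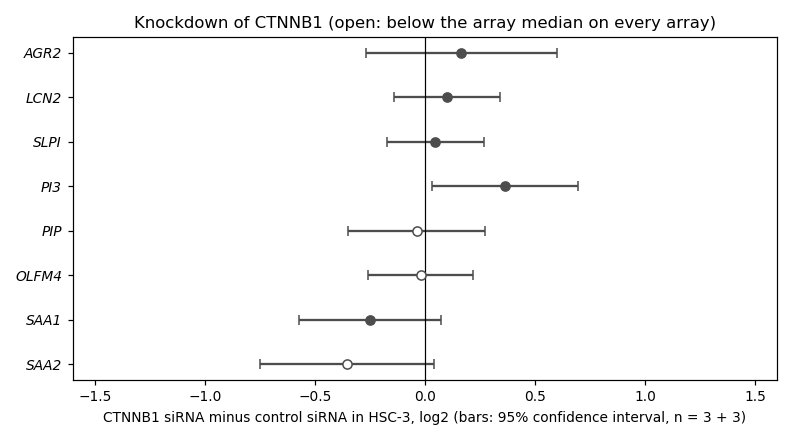
Difference between CTNNB1 siRNA and control siRNA in HSC-3 cells for each of the 8 genes, in log2 units, with the 95% confidence interval from limma (3 and 3 arrays). Open points mark the genes below the array median on every array, which were not tested. All intervals but that of PI3 include 0, and none of the genes passed after adjustment.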

How the data were processed

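RNA was measured in 6 groups of 3 arrays, with the group of an array read from its title. The authors deposited log2 values from RMA (robust multi-array average), a method that corrects background, equalizes the distributions of the arrays and summarizes the probes of a gene, with affy 1.36.1 in R 2.15.1 per the labels. Probes were regrouped to 1 probeset per Entrez gene. The siRNA arrays were normalized together with further arrays not used here. The genome build behind the arrays is not stated (not given in the sources used here). The table held 0 further columns of sample values. Array values have no count of reads behind them, and the number of arrays limits the precision.

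Of 23786 probesets, 22458 had 1 symbol by Entrez number, 1328 had none, and all 8 members matched. With limma 3.58.1 (R 4.3.3), linear models were fitted for each line, for the difference between the lines and for the knockdown. Variances were moderated over all probesets, and adjustment was by Benjamini-Hochberg over those probesets that exceeded the median of the array at least once in a set (13493 for ICG-001, 12682 for siRNA). "Passed" means an adjusted p of at most 0.05. The steps were tested on simulated data.

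The members and the 8 gene lists (206 entries) were chosen with earlier results of these data known, and a list's members are no independent evidence. Named were all members, CTNNB1, up to 4 genes per list, comparison and direction with the smallest adjusted p, every tested neighbour or paralog, and the 3 genes most like each member. Alternatives were other filters, normalizations, priors and fits, leaving out each array, and a replicate-number block. An exact permutation test of 3 against 3 arrays could not go below p = 0.1 and was not used.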

Additional observations from a re-analysis of the deposited data

Results flagged for a closer look

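Responses to ICG-001 went in opposite directions in the lines for 3 of the 8 genes, with every HSC-3 array on ICG-001 above and every CAL27 array on ICG-001 below the DMSO arrays of its line. These were AGR2, with a difference between the responses of 4.73 on the log2 scale, SAA2 with 4.01 and SAA1 with 1.57. The difference was not tested for these genes, since the same arrays chose them. The response was more positive in HSC-3 than in CAL27 cells for 29 of the 79 tested list genes and more negative for 4. These counts are by the interaction term of limma at an adjusted p of at most 0.05. Over all tested genes 13.9% and 13.3% passed in these directions. The lists were chosen with earlier results of these data known, so the counts are no independent evidence. Groups of 3 arrays are too small to look for an outlying array by a fixed rule.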

How the results depend on the processing

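For the 8 genes, the medians of the responses, of the differences between the lines and the count in the knockdown moved by less than the spread between replicates under other filters, normalizations, priors and fits. LCN2 alone moved, from 2.79 to 2.90 in HSC-3 cells with cyclic loess. Leaving out single arrays moved the median difference between the responses between 2.58 and 2.89, and that between the lines on DMSO between -3.33 and -2.77. Counts of list genes were less stable. In HSC-3 cells 34 to 37 rose and 5 to 8 fell without single arrays (42 and 8 with all), the 5 without ICG-001 replicate 2. In CAL27 cells 3 to 4 rose (7 with all) and 3 to 8 fell (6 with all), the 3 without DMSO replicate 2 or ICG-001 replicate 3 and the 8 without DMSO replicate 1. Of the 7 that rose in CAL27 cells, 3 passed without the intensity filter, as more genes were adjusted over. In CAL27 cells 12 fell with a trend and robust prior and 10 in a single fit over 12 arrays. In the knockdown the trend and robust prior gave 2 that rose and 1 that fell, against 0 and 0. The cause was not tested. Differences that had not passed changed sign without single arrays: LCN12 in HSC-3 cells (-0.014 with all arrays, from -0.27 to 0.14), PTGDS in HSC-3 cells (0.17, from -0.0086 to 0.27), SLPI in the knockdown (0.047, from -0.034 to 0.097) and TXNDC12 in the knockdown (-0.016, from -0.053 to 0.032). So did the difference of PIP in HSC-3 cells, which was given with no test (0.019, from -0.060 to 0.062).

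A block for the replicate number left 5 list genes that fell in HSC-3 cells. Same-numbered arrays correlated in their deviations from the group means by 0.047, -0.019 and -0.0088 in HSC-3 cells. The correlations were 0.18, 0.028 and 0.11 in CAL27 cells and -0.0074, 0.041 and 0.045 in the knockdown. The best match was the same number for replicate 1 in HSC-3 cells, replicates 1 and 3 in CAL27 cells and replicates 2 and 3 in the knockdown. These correlations are weak, and they cannot show whether the numbers pair the samples.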
